A study of Mus musculus with 8 samples.

Results

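The nephron claudins described here are 10 genes of the claudin family, Cldn1, Cldn2, Cldn3, Cldn4, Cldn6, Cldn7, Cldn8, Cldn10, Cldn16 and Cldn19, chosen by symbol. They are 10 of the 20240 genes used, and all 10 were among the 14391 genes that reached 1 FPKM (fragments per kilobase of transcript, scaled to sequencing depth) in at least 2 libraries. No member depended on 1 group to pass that filter, since the lowest value of any member in any library was 1.31 FPKM. RNA with poly(A) tails from mouse kidney, strain C57BL/6, was sequenced in 8 libraries. The groups were WT_DMSO (wild type, vehicle), WT_FP (wild type, flavopiridol), PKD_DMSO (autosomal dominant polycystic kidney disease, vehicle) and PKD_FP (the same disease model, flavopiridol), with 2 libraries each. Flavopiridol inhibits cyclin-dependent kinases, CDK9 of the elongation factor P-TEFb among them. The sources used here do not give the mutated gene, the way it was mutated, the drug dose or the age. The labels also do not say that replicates came from separate animals, so the p-values rest on the spread from library to library, which may be technical.

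Claudins are membrane proteins with a pair of extracellular loops that join neighbouring epithelial cells at the tight junction and set which ions pass between them. Each nephron segment has its own mixture: Cldn2 forms a cation and water pore in the proximal tubule, Cldn10 forms ion pores in the proximal tubule and the thick ascending limb, and Cldn16 with Cldn19 lets calcium and magnesium through in the thick ascending limb. Cldn3, Cldn4, Cldn7 and Cldn8 line the distal nephron and collecting duct, Cldn1 is a barrier claudin of the parietal epithelium around the glomerulus, and Cldn6 belongs mainly to developing epithelia.

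The libraries summed to between 486060 and 572823 FPKM, and 12790 to 13813 genes per library reached 1 FPKM. No read depth is known and counting error cannot be given. Several libraries stood apart in cell type markers. In WT_FP replicate 2 the summed FPKM of 8 adipocyte markers was 1815, against 117 to 385 in the other 7 libraries, and its proximal tubule sum of 4111 was lower than the 7391 to 9533 of the other wild-type libraries. Its sum of 12 principal cell markers was 2188, against 955 to 1453 in the other wild-type libraries. Its sum of 7 thin limb markers was 2586, against 628 to 1364. Its urothelial sum of 309 compared with 56.5 to 130 in the other wild-type libraries, and that of PKD_FP replicate 2 was 450 against 118 to 194 in the other PKD libraries. PKD_DMSO replicate 1 had an endothelial sum of 130, against 330 to 693 in the other 7 libraries. In PKD_DMSO compared with WT_DMSO, all 10 macrophage markers and 9 of 10 tubule injury markers rose (limma), with macrophage sums of 657 and 1297 FPKM against 116 and 73. The part of these differences in cell type markers in the claudin values was not tested.

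Members lie in pairs at 2 places on the chromosome (mm10, positions from RefSeq on GRCm38.p6). Cldn3 (chr5:134986214-134987476) and Cldn4 (chr5:134945123-134946934) are 39.3 kb apart, and Cldn1 (chr16:26356645-26371839) and Cldn16 (chr16:26463135-26482765) are 91.3 kb apart. The others are Cldn2 (chrX:139800808-139811386), Cldn6 (chr17:23679348-23682446), Cldn7 (chr11:69964779-69967886), Cldn8 (chr16:88560826-88563183), Cldn10 (chr14:118787871-118874525) and Cldn19 (chr4:119255441-119262438). Cldn10 has a pair of start sites 67.1 kb apart, and is known for proximal tubule and thick ascending limb isoforms with different first exons, but the deposited value is given per gene, not per start site. Cldn3, Cldn10 and Cldn19 overlap other annotated genes, and the sources used here do not say whether the counting used strand.

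The 250 bases before the start site are shown for Cldn4, its neighbour Cldn3 and Cldn7, which were higher together in the PKD libraries, and for the first start of Cldn10, the member that was lower. They come from RefSeq (GRCm38.p6) and read 5′ to 3′ on the gene's strand: Cldn4 chr5:134946935-134947184 (minus), Cldn3 chr5:134985964-134986213 (plus), Cldn7 chr11:69964529-69964778 (plus) and Cldn10 chr14:118787621-118787870 (plus). Capitals mark matches to a searched motif.
Cldn4: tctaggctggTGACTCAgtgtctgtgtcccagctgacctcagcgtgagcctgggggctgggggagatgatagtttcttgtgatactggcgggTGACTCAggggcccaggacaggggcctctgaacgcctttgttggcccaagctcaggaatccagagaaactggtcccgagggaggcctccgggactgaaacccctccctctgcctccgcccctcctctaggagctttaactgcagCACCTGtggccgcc
Cldn3: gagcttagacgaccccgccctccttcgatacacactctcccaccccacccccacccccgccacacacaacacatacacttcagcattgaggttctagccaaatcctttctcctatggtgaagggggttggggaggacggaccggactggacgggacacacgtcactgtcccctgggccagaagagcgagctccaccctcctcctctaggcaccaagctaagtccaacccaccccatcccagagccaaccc
Cldn7: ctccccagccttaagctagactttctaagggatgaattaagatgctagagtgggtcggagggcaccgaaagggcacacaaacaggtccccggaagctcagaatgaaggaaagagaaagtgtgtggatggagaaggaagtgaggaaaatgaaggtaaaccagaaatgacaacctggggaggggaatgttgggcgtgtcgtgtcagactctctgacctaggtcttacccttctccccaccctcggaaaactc
Cldn10: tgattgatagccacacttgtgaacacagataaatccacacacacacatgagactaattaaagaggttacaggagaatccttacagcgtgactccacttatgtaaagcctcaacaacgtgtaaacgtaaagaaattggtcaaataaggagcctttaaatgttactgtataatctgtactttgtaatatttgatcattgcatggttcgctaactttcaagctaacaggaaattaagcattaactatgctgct

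Motifs of 4 kinds were searched on both strands in 12 such windows, which cover 9 of the 10 members. AP-1 (TGANTCA) was found in 1 of the 12, against 6.75% of all 32851 windows: the Cldn4 window holds TGACTCA 2 times, with first bases 240 and 158 before the start. The E-box of Snail and Zeb repressors (CAGGTG, or CACCTG on the other strand) was found in 3 of 12, in Cldn4 at 14, in Cldn6 at 93 and before the second start of Cldn7 at 97 and 57, against 17.2% of all windows. The grainyhead-like motif (AACNNGTT, 3.64% of all windows) and the HNF1 motif (0.00913%) were in none of the 12. Annotated claudin exons cover 116 of the 250 bases in the Cldn6 window and 221 of the 250 in the second Cldn7 window. They also cover 218 bases in the second Cldn10 window, 27 and 55 in the Cldn19 windows and 2 in the Cldn1 window. The windows of the 2 Cldn19 starts overlap, so the 12 are not all separate stretches. The motif matches do not overlap each other in these windows. A match is a stretch of letters and was not tested for binding.

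The make-up of the claudin transcripts differed between the genotypes. In both wild-type groups the order of mean FPKM was Cldn10, Cldn2, Cldn8, Cldn19, Cldn7, Cldn4, Cldn3, Cldn16, Cldn1 and Cldn6. In WT_DMSO the replicate ranges of neighbours in that order overlapped for Cldn8 with Cldn19 and for Cldn19 with Cldn7. In PKD_DMSO the order was Cldn4, Cldn2, Cldn7, Cldn3, Cldn10, Cldn8, Cldn19, Cldn1, Cldn16 and Cldn6, and the ranges overlapped for Cldn7 with Cldn3 and for Cldn10 with Cldn8. Cldn10 made up 42.9% ± 9.01 (SD, n = 2) of the summed FPKM of the 10 genes in WT_DMSO, 43.5% ± 5.07 in WT_FP, 6.92% ± 0.217 in PKD_DMSO and 17.6% ± 6.83 in PKD_FP. Cldn4 made up 4.84% ± 0.131, 6.69% ± 3.71, 32.2% ± 0.95 and 27.9% ± 2.11 in the same groups. The sum itself was 437 ± 7.59 FPKM in WT_DMSO, 472 ± 50.3 in WT_FP, 731 ± 98.8 in PKD_DMSO and 705 ± 4.09 in PKD_FP. The plot of shares by library shows the exchange of the leading claudin.

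**Figure D1:**
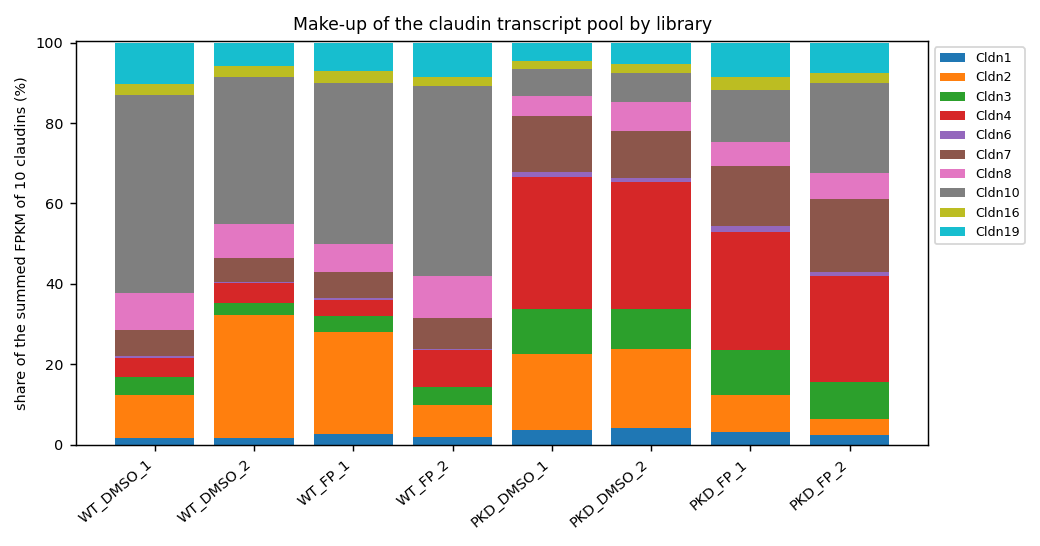
Share of each claudin in the summed FPKM of the 10 genes (vertical axis, percent) in each of the 8 libraries (horizontal axis), as stacked bars. Cldn10 holds 42.9% on average in WT_DMSO and 6.92% in PKD_DMSO, while Cldn4 holds 4.84% and 32.2%.

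In PKD_DMSO compared with WT_DMSO, which asks how the disease model differs under vehicle, 5 of the 10 claudins rose (Cldn1, Cldn3, Cldn4, Cldn6 and Cldn7) and 1 fell (Cldn10), by limma on log2(FPKM + 1) with Benjamini-Hochberg adjustment over all genes. Of all genes tested, 22.3% passed the same threshold of 0.05, 14.8% higher and 7.52% lower, and 38% had an unadjusted p under 0.05. Replicates of the groups did not overlap for 8 members, 7 above and 1 below, where 41.2% and 24.5% of all genes did so. The median log2 fold change of the 10 was 1.27, against 0.12 for all genes. After median-of-ratios scaling these medians were 1.12 and -0.01, and the calls over all genes went from 2130 higher and 1082 lower to 1544 and 1327, with the same 6 claudins called. They were also the 6 called without PKD_DMSO replicate 1. A lower value in whole kidney can mean fewer cells of a type or less RNA per cell, which cannot be told apart here.

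**Figure D2:**
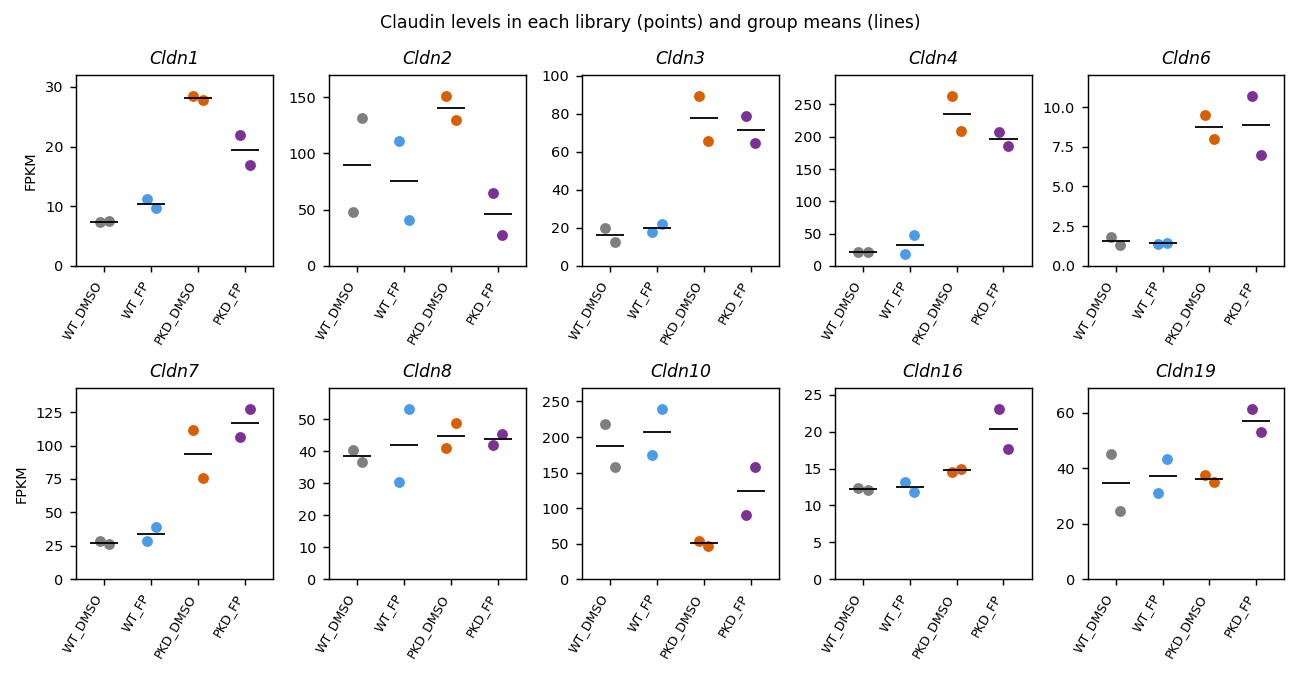
FPKM of each of the 10 claudins (vertical axis, linear, from 0, scaled per gene) in the 4 groups (horizontal axis). Points are libraries and lines are group means of 2; Cldn1, Cldn3, Cldn4, Cldn6 and Cldn7 sit higher in both PKD groups than in both wild-type groups.

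Among the claudins of the distal nephron and collecting duct, Cldn4 differed most. Cldn4, a barrier claudin that with Cldn8 governs chloride passage in the collecting duct, was at 21.00 and 21.29 FPKM in WT_DMSO, 17.77 and 47.33 in WT_FP, 263.39 and 208.53 in PKD_DMSO, and 207.94 and 185.28 in PKD_FP. All 4 PKD libraries were above all 4 wild-type libraries, and the highest wild-type value came from WT_FP replicate 2. The mean was 11.2-fold higher in PKD_DMSO than in WT_DMSO, with 3.41 ± 0.40 (SE) as the log2 fold change (adjusted p = 0.00426, limma).

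Cldn3, a sealing claudin, was at 20.12 and 12.63 FPKM in WT_DMSO, 17.56 and 21.84 in WT_FP, 89.46 and 65.61 in PKD_DMSO, and 79.01 and 64.45 in PKD_FP. The genotypes did not overlap under either treatment, and Cldn3 rose 4.73-fold in PKD_DMSO (log2 fold change 2.19 ± 0.27, adjusted p = 0.00447, limma). Cldn7, which sits partly on the basolateral membrane, was at 28.29 and 26.19 FPKM in WT_DMSO, 28.50 and 39.08 in WT_FP, 111.38 and 75.77 in PKD_DMSO, and 106.41 and 127.24 in PKD_FP. Again all PKD libraries were higher, and the change in PKD_DMSO was 3.44-fold (log2 fold change 1.72 ± 0.24, adjusted p = 0.00616, limma).

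Cldn8, the partner that recruits Cldn4 to the junction, had 40.59 and 36.58 FPKM in WT_DMSO, 30.47 and 53.24 in WT_FP, 41.06 and 48.78 in PKD_DMSO, and 42.04 and 45.53 in PKD_FP. The PKD_DMSO libraries were just above those of WT_DMSO, but the log2 fold change of 0.21 did not pass (95% interval -0.40 to 0.82, adjusted p = 0.583, limma). The means of Cldn4 and Cldn8 were 21.1 and 38.6 FPKM in WT_DMSO, and 236 and 44.9 in PKD_DMSO.

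Markers of the collecting duct principal cell were set beside these genes. None of the 12 passed in PKD_DMSO compared with WT_DMSO (0 called by limma, 2 at an unadjusted p under 0.05, against 22.3% and 38% of all genes). Their median log2 fold change was -0.49, and their sum was 1453 and 1064 FPKM in WT_DMSO and 905 and 801 in PKD_DMSO. Aqp2, the vasopressin-regulated water channel, averaged 667 and 392 FPKM (adjusted p = 0.374, limma). Markers of the other distal cells were lower. Of 13 intercalated cell markers 8 fell and 0 rose, with a median of -1.19. Of 10 distal convoluted tubule markers 3 fell and 1 rose, with a median of -0.86. Of all genes, 7.52% fell and 14.8% rose. On the log2(FPKM + 1) scale Cldn4 less the mean of the principal cell markers was -1.24 and -1.0 in WT_DMSO, and 2.58 and 2.60 in PKD_DMSO. The same difference between gene and marker mean moved by 2.49 for Cldn3, 2.02 for Cldn7 and 0.51 for Cldn8, with no overlap between the groups.

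Cldn4 is also a claudin of the urothelium, whose 9 markers summed to 130 and 77.1 FPKM in WT_DMSO and 194 and 155 in PKD_DMSO. By limma 1 of the 9 rose and 0 fell, where 14.8% and 7.52% of all genes did so. The markers did not move together, with 6 log2 fold changes above 0 and 3 below. Named after their values were seen, the keratins Krt5 and Krt14 averaged 4.78 and 1.34 FPKM in WT_DMSO, and 39.2 and 32.2 in PKD_DMSO. Upk1a, Upk2 and Upk3a were lower in mean, at 12.6, 10.7 and 16.9 FPKM against 8.33, 5.6 and 15.8. Cldn4 less the urothelial marker mean was higher by 2.59 in PKD_DMSO. The library with the larger urothelial sum had the higher Cldn4 in WT_FP (309 against 56.5 FPKM of markers) and PKD_DMSO (194 against 155). It had the lower Cldn4 in WT_DMSO (130 against 77.1) and PKD_FP (450 against 118). In PKD_DMSO, Krt5 and Krt14 had the order of the sums (57.82 against 20.60 and 41.76 against 22.62 FPKM). Upk3a and Psca had the opposite order there (13.80 against 17.86 and 44.23 against 50.74 FPKM). Against 15 genes of adherens junctions and epithelial identity, of which 10 rose and 1 fell, the excess was 2.34 for Cldn4, 1.12 for Cldn3 and 0.65 for Cldn7, and for Cldn8 the difference was -0.86. These differences from marker means are descriptions without a test.

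Outside the distal nephron, Cldn1 and Cldn6 were low in wild type and higher in PKD. Cldn1, the barrier claudin that also seals the epidermis, was at 7.28 and 7.49 FPKM in WT_DMSO, 11.21 and 9.64 in WT_FP, 28.50 and 27.77 in PKD_DMSO, and 21.86 and 16.84 in PKD_FP. The groups were ordered without overlap, WT_DMSO lowest, then WT_FP, PKD_FP and PKD_DMSO. The rise in PKD_DMSO was 3.81-fold (log2 fold change 1.80 ± 0.17, adjusted p = 0.00202, limma). Of 10 podocyte and parietal epithelium markers 1 rose and 2 fell, where 14.8% and 7.52% of all genes did so.

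Cldn6 was the lowest of the 10 in every group, at 1.81 and 1.31 FPKM in WT_DMSO, 1.38 and 1.45 in WT_FP, 9.53 and 7.98 in PKD_DMSO, and 10.71 and 7.01 in PKD_FP. All PKD libraries were above all wild-type libraries. The rise in PKD_DMSO was 5.61-fold (log2 fold change 1.93 ± 0.23, adjusted p = 0.00429, limma). At these low values the log2(FPKM + 1) scale understates the change.

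Cldn2, the proximal tubule pore, varied widely between replicates. It was at 47.51 and 131.65 FPKM in WT_DMSO, 110.96 and 40.75 in WT_FP, 151.24 and 129.83 in PKD_DMSO, and 65.06 and 27.69 in PKD_FP. The PKD_DMSO range overlapped the upper WT_DMSO library, and the log2 fold change of 0.82 had an interval from -0.74 to 2.37 (adjusted p = 0.401, limma).

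Most proximal tubule markers were lower in the same comparison. Of the 18, 8 fell and 0 rose in PKD_DMSO, where 7.52% and 14.8% of all genes did so. Their median log2 fold change was -1.60, with 16 below 0 and 2 above. Their sum was 7391 and 9527 FPKM in WT_DMSO and 2307 and 1377 in PKD_DMSO. Miox, the myo-inositol oxygenase of this segment, fell from a mean of 2721 to 145 FPKM (adjusted p = 0.00353, limma). Slc13a1, named after its values were seen, was higher without overlap. It was at 75.04 and 96.74 FPKM in WT_DMSO, and 205.05 and 196.47 in PKD_DMSO. Within each of the 4 groups, the library with the larger marker sum had the higher Cldn2. Relative to the marker mean, Cldn2 stood at -1.56 and -0.68 in WT_DMSO, -0.85 and -1.08 in WT_FP, 1.18 and 1.56 in PKD_DMSO, and 0.75 and 0.02 in PKD_FP on the log2 scale, so that every PKD library was above every wild-type library.

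Of the thick ascending limb claudins, 1 fell and the Cldn16 and Cldn19 pair did not pass. Cldn10 was at 217.79 and 157.58 FPKM in WT_DMSO, 174.45 and 239.30 in WT_FP, 54.20 and 46.77 in PKD_DMSO, and 90.72 and 157.81 in PKD_FP. Both PKD_DMSO libraries were below every other library. The mean was 3.72-fold lower than in WT_DMSO (log2 fold change -1.86 ± 0.31, adjusted p = 0.0104, limma). The call was lost without WT_DMSO replicate 1 (-1.63, adjusted p = 0.0502, limma) and without PKD_DMSO replicate 2 (-1.75, adjusted p = 0.0824, limma).

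Cldn16, mutated in a hereditary magnesium-wasting disease, was at 12.41 and 12.07 FPKM in WT_DMSO, 13.21 and 11.88 in WT_FP, 14.60 and 14.96 in PKD_DMSO, and 23.07 and 17.61 in PKD_FP. The PKD libraries were the higher ones, with a log2 fold change under vehicle of 0.25 (95% interval -0.13 to 0.64, adjusted p = 0.297, limma). Cldn19, its partner, was at 45.17 and 24.45 FPKM in WT_DMSO, 31.14 and 43.34 in WT_FP, 37.42 and 35.00 in PKD_DMSO, and 61.27 and 52.84 in PKD_FP. Its WT_DMSO range enclosed the PKD_DMSO values, and the log2 fold change was 0.12 (95% interval -0.59 to 0.82, adjusted p = 0.801, limma).

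Markers of the thick ascending limb were lower in the same libraries. Of the 10, 6 fell and 0 rose in PKD_DMSO, with a median log2 fold change of -1.26. Of all genes, 7.52% fell and 14.8% rose. Slc12a1, the sodium-potassium-chloride cotransporter of the segment, fell from 289 to 96.4 FPKM (log2 fold change -1.56, adjusted p = 0.0105, limma). Umod, the segment's secreted uromodulin, averaged 1043 and 733 FPKM (log2 fold change -0.50, adjusted p = 0.0949, limma). Measured against the mean of 9 of these markers, without the claudin on the list, Cldn10 differed by -0.01 between PKD_DMSO and WT_DMSO on the log2 scale, and by -0.18 against the 18 proximal tubule markers, and the groups overlapped in both. Cldn16 differed by 2.10 and Cldn19 by 1.96, and for both every PKD library was above every wild-type library. In the plot of claudins beside segment markers, Cldn10 stays within 0.15 of the marker mean in 7 libraries and is 0.74 above it in PKD_FP replicate 2, while Cldn16 and Cldn19 lie far below it in wild type and closer to it in PKD.

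**Figure D3:**
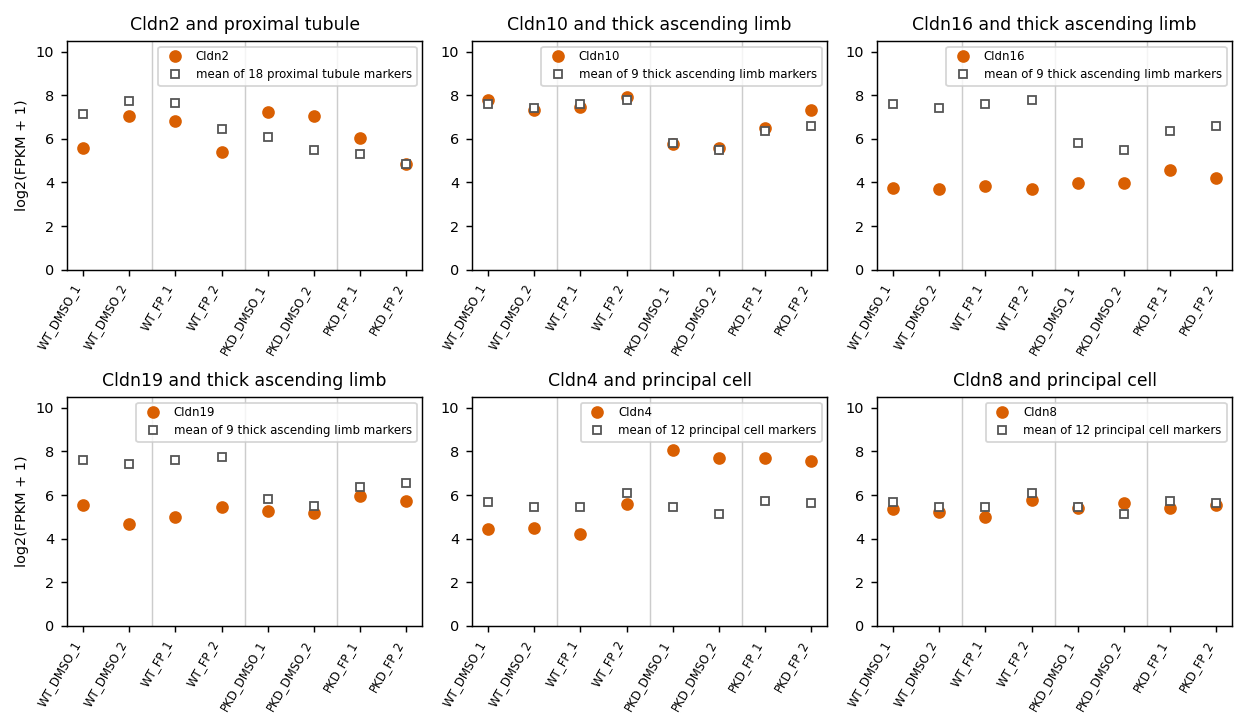
Claudin level and mean of segment markers, both as log2(FPKM + 1) (vertical axis), in each of the 8 libraries (horizontal axis). Filled circles are the claudin and open squares are the mean of 18 proximal tubule, 9 thick ascending limb or 12 principal cell markers; Cldn4 lies below the principal cell mean in all wild-type libraries and above it in all PKD libraries.

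Under flavopiridol the 5 claudins that rose under vehicle rose again, together with Cldn16. In PKD_FP compared with WT_FP, 6 claudins rose (Cldn1, Cldn3, Cldn4, Cldn6, Cldn7 and Cldn16) and 0 fell, by limma, where 13.9% of all genes passed, 8.71% higher and 5.23% lower. The log2 fold changes were 2.71 ± 0.40 for Cldn4, 2.0 ± 0.23 for Cldn6, 1.81 ± 0.27 for Cldn3, 1.77 ± 0.24 for Cldn7, 0.83 ± 0.17 for Cldn1 and 0.65 ± 0.16 for Cldn16, with adjusted p between 0.00702 and 0.0443. The mean was 6.04-fold higher for Cldn4, 6.26-fold for Cldn6 and 1.62-fold for Cldn16. Groups did not overlap for 7 members above (34.6% of all genes) and 1 below (25.2%).

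Cldn10 was not called under flavopiridol: its log2 fold change was -0.77 (95% interval -1.51 to -0.03, adjusted p = 0.148, limma). Cldn8 at 0.12, Cldn19 at 0.62 and Cldn2 at -0.65 also did not pass. Calls in this comparison depended on single libraries. Without WT_FP replicate 1 the calls were Cldn4 and Cldn6, without PKD_FP replicate 1 Cldn6 and Cldn7, and without PKD_FP replicate 2 Cldn6. Without WT_FP replicate 2, the library with the high adipocyte sum, they were Cldn3, Cldn4, Cldn6 and Cldn7, and the calls of Cldn16 and Cldn1 were lost there and in 12 and 7 further alternatives of 14.

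**Figure D4:**
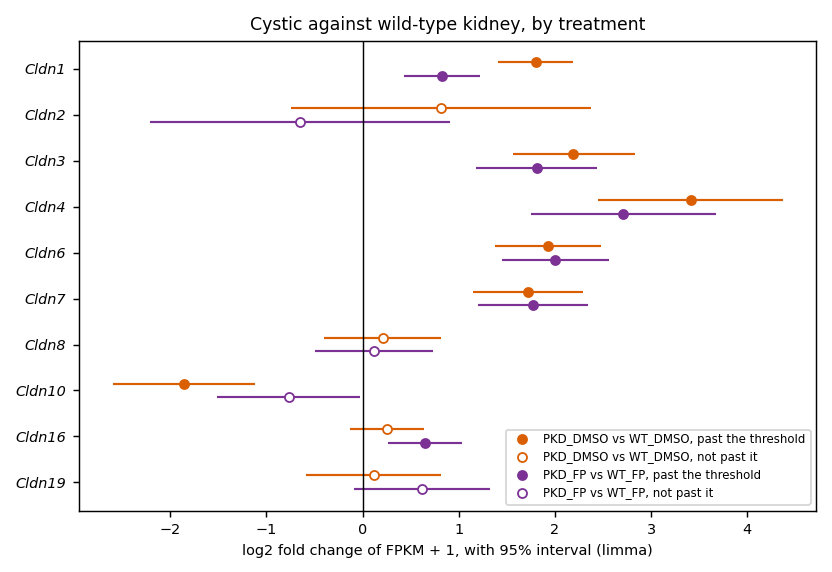
Log2 fold change of log2(FPKM + 1) (horizontal axis) with its 95% interval for each claudin (vertical axis), in PKD_DMSO compared with WT_DMSO and in PKD_FP compared with WT_FP (filled points passed the adjusted threshold). Intervals of Cldn1, Cldn3, Cldn4, Cldn6 and Cldn7 lie above 0 under vehicle and under flavopiridol, while that of Cldn10 reaches from -2.60 to -1.12 under vehicle and from -1.51 to -0.03 under flavopiridol.

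Flavopiridol itself gave no call among the claudins. In PKD_FP compared with PKD_DMSO, limma called 0 of 10, with 4 at an unadjusted p under 0.05, where 0.0139% of all genes were called, 0.00695% in each direction, and 19.5% had an unadjusted p under 0.05. Cldn10 was 2.46-fold higher in mean, with the largest log2 fold change above 0 of the 10 (1.23, 95% interval 0.49 to 1.97, adjusted p = 0.135, limma). Its 90.72 and 157.81 FPKM lay above 54.20 and 46.77, and the upper value reached the lower end of WT_DMSO. Cldn2 differed by -1.70 (95% interval -3.26 to -0.14, adjusted p = 0.229, limma), Cldn1 by -0.53 (-0.92 to -0.14, adjusted p = 0.169) and Cldn16 by 0.42 (0.04 to 0.81, adjusted p = 0.226). Cldn4 differed by -0.25 (95% interval -1.21 to 0.71) and Cldn7 by 0.34 (-0.23 to 0.90). Replicates did not overlap for Cldn10, Cldn16 and Cldn19 above and Cldn1, Cldn2 and Cldn4 below, where 31.4% and 25.2% of all genes did so.

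Segment markers also stood at other levels in these libraries. Of 10 thick ascending limb markers, 7 were higher in both PKD_FP libraries than in both PKD_DMSO libraries, with a median log2 fold change of 0.68 and sums of 1642 and 1695 FPKM against 1181 and 1058. Of 18 proximal tubule markers, 11 were lower without overlap, with a median of -0.89. Of all genes, 31.4% were higher and 25.2% lower without overlap. The thick ascending limb list includes a claudin, Cldn14, whose values overlapped between these groups. None of either list passed by limma, with 5 and 6 at an unadjusted p under 0.05, against 19.5% of all genes. In PKD_FP against PKD_DMSO, Cldn10 differed by 0.43 relative to the thick ascending limb markers and by 1.94 relative to the proximal tubule markers, and Cldn2 by -0.99 relative to the proximal tubule markers, without overlap in any of these.

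In WT_FP compared with WT_DMSO limma called 0 of 10 claudins and 0% of all genes, with 1 claudin and 1.27% of all genes at an unadjusted p under 0.05. That claudin was Cldn1 (log2 fold change 0.44, 95% interval 0.05 to 0.83, adjusted p = 1). Replicates did not overlap for Cldn1 and Cldn7 above and 0 below, where 16.6% and 5.32% of all genes did so. The interaction, which asks whether the drug difference depends on genotype, had 0 claudin calls by limma and 2 at an unadjusted p under 0.05, against 0% and 11.2% of all genes. They were Cldn1 at -0.97 (95% interval -1.53 to -0.42, adjusted p = 0.384) and Cldn10 at 1.09 (0.05 to 2.14, adjusted p = 0.44). So a difference in the drug response between the genotypes was not shown for any of the 10. The comparisons share groups: PKD_DMSO enters 2 of them with opposite sign, as does WT_FP.

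The genes whose centred log2 profiles lay nearest to each called member were found among 12615 genes over the 8 libraries, by root mean square distance. Nearest to Cldn4 were Egr1 and Gprc5a, both at 0.23, and nearest to Cldn3 were B4galnt1 and Lgals3, both at 0.18. For Cldn7 they were Mex3a (0.11) and Mapk13 (0.12), for Cldn6 Dmkn (0.14) and Krt8 (0.18), and for Cldn1 Rell1 and Prss23 (both 0.14). For Cldn10 they were Defb2 and Slc12a1 (both 0.19), and for Cldn16 Arpc4 (0.06) and Tma16 (0.08). Egr1, an immediate-early transcription factor, averaged 4.02, 4.92, 35.3 and 34.6 FPKM in WT_DMSO, WT_FP, PKD_DMSO and PKD_FP. These are descriptions of profile over libraries that share the contrast between genotypes.

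Of 14 further claudins listed, 12 had a row and 8 passed the low-value filter. In PKD_DMSO compared with WT_DMSO limma called 0 of the 8, with 2 at an unadjusted p under 0.05, against 22.3% and 38% of all genes. Cldn14, which blocks the Cldn16 pore of the thick ascending limb, was at 0.17 and 0.14 FPKM in WT_DMSO, 0.31 and 0.06 in WT_FP, 1.60 and 1.16 in PKD_DMSO, and 3.73 and 1.41 in PKD_FP. All PKD libraries were higher, with a log2 fold change of 1.04 ± 0.34 under vehicle (adjusted p = 0.0674, limma) and 1.52 ± 0.34 under flavopiridol (adjusted p = 0.0321, limma). Cldn14 reached 1 FPKM in PKD libraries only and so passed the low-value filter through the genotype where it is high, which makes these tests no support for a difference. Cldn12, found broadly in epithelia, averaged 17.1 FPKM in WT_DMSO and 27.4 in PKD_DMSO (log2 fold change 0.67, adjusted p = 0.094, limma).

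The remaining 6 were not called in either comparison of genotype, and of these Cldn9 also passed the filter through PKD libraries only. Among wild-type libraries, Cldn22 and Cldn23 reached 1 FPKM only in WT_FP replicate 2 (2.47 and 1.07 FPKM). They too needed PKD libraries to pass. Cldn5, the endothelial claudin, averaged 17.5, 22, 13.8 and 22.5 FPKM in WT_DMSO, WT_FP, PKD_DMSO and PKD_FP, and Cldn15 averaged 15.7, 17.3, 6.93 and 9.78. Cldn11 was at 5.69 and 3.86 FPKM in WT_DMSO, 1.11 and 12.74 in WT_FP, 0.39 and 0.82 in PKD_DMSO, and 0.24 and 7.25 in PKD_FP, with replicate 2 far above replicate 1 under flavopiridol in both genotypes. Cldn9, Cldn22 and Cldn23 stayed at low levels, with group means from 0.175 to 2.34 FPKM.

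Claudins are anchored by scaffolds inside the cell and accompanied by other membrane proteins. Of 30 such tight junction partners, 9 rose and 1 fell in PKD_DMSO compared with WT_DMSO (limma), with a median log2 fold change of 0.36, against the 14.8% and 7.52% of all genes. Cxadr, the coxsackievirus and adenovirus receptor, was at 7.99 and 7.62 FPKM in WT_DMSO, 8.39 and 10.76 in WT_FP, 28.00 and 28.69 in PKD_DMSO, and 27.70 and 24.02 in PKD_FP. All PKD libraries were higher, and the rise under vehicle was 1.74 ± 0.16 (adjusted p = 0.00202, limma). Prkci, the atypical protein kinase C of the polarity complex, rose from 8.92 to 22.1 FPKM (1.22 ± 0.13, adjusted p = 0.00306, limma).

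Igsf5, a junctional adhesion molecule, rose from 30.3 to 53.4 FPKM and Cgn, the adaptor cingulin, from 7.03 to 14.2 FPKM (adjusted p = 0.0228 and 0.0269, limma). Jam3, another junctional adhesion molecule, fell from 14.6 to 7.95 FPKM (-0.82 ± 0.20, adjusted p = 0.0311, limma). Tjp1 (ZO-1) and Ocln (occludin), named here after their values were seen, rose by 1.01 and 0.62 on the log2 scale. These calls were close to the threshold (adjusted p = 0.0463 and 0.044, limma) and depended on the processing. Of the alternatives that kept all libraries, Ocln was called again only with the pseudocount of 0.1. Tjp1 kept its call when the values were rescaled. It lost the call without the low-value filter, with the replicate block and with only the groups compared. Other partner calls also depended on the processing. Igsf5 lost its call with median-of-ratios scaling and with only the groups compared, and Cgn with the replicate block. Jam3 lost its call with the replicate block and with only the groups compared. In PKD_FP compared with WT_FP 4 of the 30 rose and 0 fell, where 8.71% and 5.23% of all genes did so. Among the 4 were Cxadr at 1.35, Lsr, an angulin of junctions between 3 cells, at 1.11, and Prkci at 0.64 (adjusted p = 0.00746, 0.0185 and 0.0257, limma). In PKD_FP compared with PKD_DMSO limma called 0 of 30, with 4 at an unadjusted p under 0.05, against 0.0139% and 19.5% of all genes.

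The partner calls under vehicle were fewer without 1 library of either group: 3 without WT_DMSO replicate 1, 4 without WT_DMSO replicate 2, 3 without PKD_DMSO replicate 1 and 3 without PKD_DMSO replicate 2. Cxadr and Prkci were called in all 4 of these. Under flavopiridol the count was 1, Cxadr, without WT_FP replicate 1, PKD_FP replicate 1 or PKD_FP replicate 2, and 2, Cxadr and Lsr, without either PKD_DMSO library.

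**Figure D5:**
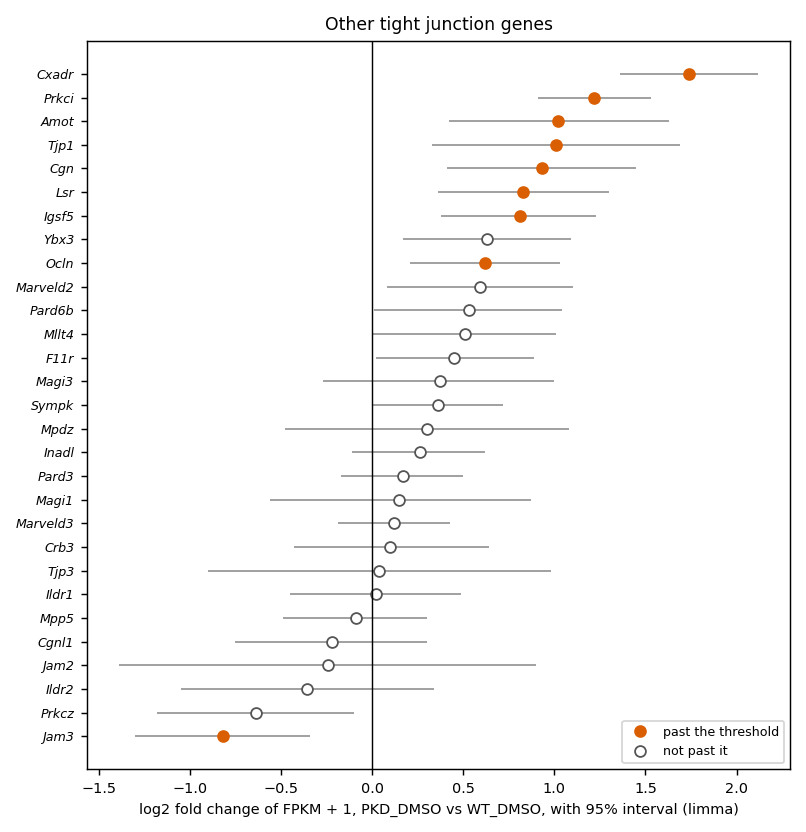
Log2 fold change of log2(FPKM + 1) (horizontal axis) of the tight junction partners shown (vertical axis) in PKD_DMSO compared with WT_DMSO, with 95% intervals; filled points passed the adjusted threshold. Cxadr lies at the upper end at 1.74 and Jam3 at the lower end at -0.82.

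Among 22 genes known to regulate claudins, 4 rose and 1 fell in PKD_DMSO compared with WT_DMSO (limma), with a median log2 fold change of 0.26, where 14.8% of all genes rose and 7.52% fell. Elf3, an epithelial Ets transcription factor, was at 26.44 and 22.75 FPKM in WT_DMSO, 20.96 and 41.84 in WT_FP, 99.19 and 65.15 in PKD_DMSO, and 76.61 and 95.28 in PKD_FP. Every PKD library was higher, and Elf3 rose by 1.67 ± 0.35 under vehicle and 1.49 ± 0.35 under flavopiridol (adjusted p = 0.0194 and 0.0363, limma). Grhl2, a grainyhead-like factor that activates Cldn4 in other epithelia, rose from 3.23 to 7.99 FPKM (1.10 ± 0.29, adjusted p = 0.0396, limma). St14, the protease matriptase, rose from 34.7 to 66.7 FPKM (0.93 ± 0.23, adjusted p = 0.0301, limma). Neither Grhl2 nor St14 was called in PKD_FP compared with WT_FP. There Grhl2 averaged 4.58 FPKM in WT_FP and 7.81 in PKD_FP, and St14 averaged 41.3 and 60.7.

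Wnk4, a kinase that acts on distal salt transport and on claudins, fell from 73.8 to 41 FPKM under vehicle (-0.84 ± 0.19, adjusted p = 0.024, limma). Under flavopiridol it was at 87.5 FPKM in WT_FP and 38.9 in PKD_FP (-1.16 ± 0.19, adjusted p = 0.015, limma). Wnk1, a kinase of the same family, was at 44.7 FPKM in WT_FP and lower, at 22.8, in PKD_FP (-0.94 ± 0.18, adjusted p = 0.0208, limma). Between PKD_DMSO and WT_DMSO its difference was -0.30 (adjusted p = 0.248, limma). The interaction of Wnk1 did not pass (-0.63, adjusted p = 0.429, limma).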

How the data were processed

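Poly(A)-selected RNA of mouse kidney was sequenced in 8 libraries, grouped and numbered by the labels, with 2 per group. The deposited values were taken as FPKM, computed by the authors, rounded to 2 decimals; per the file headers no unit is named, and FPKM was inferred from the values. The names Bowtie2, DESeq2 and mm10 are all that is known of the processing per the submitters' processing notes, and the sources used here do not give the counting tool or gene models. Each file held 20245 entries, of which 4 (of 2 repeated symbols) and 1 with a dash for a symbol were left out. The planned count test could not be used on FPKM.

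Values were transformed to log2(FPKM + 1). A gene needed a level of 1 FPKM or more in 2 or more libraries, which 14391 met, and these were fitted with limma 3.58.1 in R 4.3.3, with group means as terms and moderated spread (trend and robust). P-values were two-sided and adjusted over all genes by Benjamini-Hochberg, with a threshold of 0.05. An exact permutation test of 2 against 2 libraries cannot go below 0.33. The fit was tested on simulated data. Members, gene lists and tests were chosen with earlier results of these data known.

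All 10 members are named. So are other claudins with a group mean of at least 1 FPKM, partners and regulators with the smallest p among those called (up to 5 per direction under vehicle and 3 otherwise), up to 2 markers per cell type list by level, and 2 nearest genes per called member. Of these, 2 genes are not reported here. Symbols were matched to RefSeq (GRCm38.p6; 19395 matched).

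Alternatives were a pseudocount of 0.1, no low-value filter, median-of-ratios scaling, quantile normalization, replicate block, only the groups compared, and each library left out. The labels do not say that a replicate number marks a shared batch. Same-numbered libraries deviated together in some pairs of groups (r = 0.4848 for WT_FP with PKD_FP) and oppositely in others (r = -0.5151 for WT_DMSO with WT_FP), so the numbers were not taken as pairs.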

Additional observations from a re-analysis of the deposited data

How the results depend on the processing

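Under vehicle, 6 claudins were called in PKD_DMSO compared with WT_DMSO with every alternative that kept all libraries, the replicate block among them, and 5 to 6 with each library left out in turn. In PKD_FP compared with WT_FP, where 6 were called, the count was 5 with the replicate block, 4 with median-of-ratios scaling and 4 with only the groups compared, and ranged from 1 to 5 with a library left out. The labels do not say that the replicate numbers pair the libraries, and the correlation of same-numbered deviations was 0.4848 for WT_FP with PKD_FP and -0.1841 for WT_DMSO with PKD_DMSO. Tight junction partners, 10 in the first comparison, numbered 4 with the replicate block, 5 with only the groups compared and 3 to 9 with a library left out. In the second comparison, with 4, they numbered 2 with the replicate block, 2 with only the groups compared and 1 to 4 with a library left out. With fewer libraries or added terms the fit has fewer residual degrees of freedom. With replicate numbers crossed, an alternative chosen after seeing the data, 6 claudins and 8 partners were called in PKD_DMSO compared with WT_DMSO, and 0 in WT_FP compared with WT_DMSO. The drug comparisons and the interaction had 0 claudin calls under every alternative run.

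Of 710 recomputed log2 fold changes of the 10 claudins, 647 kept direction and side of the threshold, 30 lost a call and 33 reversed. None of the reversals was in a called value. After median-of-ratios scaling the reversed values were -0.06 for Cldn8 and -0.08 for Cldn16 in WT_FP compared with WT_DMSO, and -0.03 for Cldn19 in PKD_DMSO compared with WT_DMSO. After quantile normalization Cldn16 was at -0.07 in WT_FP compared with WT_DMSO. The cause was not tested. With a library left out, reversed values in WT_FP compared with WT_DMSO had ranges of -0.96 to 0.50 for Cldn2, -0.04 to 0.60 for Cldn3, -0.24 to 1.13 for Cldn4, -0.22 to 0.06 for Cldn6, -0.33 to 0.46 for Cldn8, -0.09 to 0.37 for Cldn10, -0.04 to 0.10 for Cldn16 and -0.29 to 0.57 for Cldn19. In PKD_FP compared with PKD_DMSO they were -0.32 to 0.12 for Cldn3, -0.28 to 0.27 for Cldn6 and -0.15 to 0.09 for Cldn8. In PKD_FP compared with WT_FP they were -1.36 to 0.06 for Cldn2 and -0.28 to 0.51 for Cldn8. For Cldn19 in PKD_DMSO compared with WT_DMSO the range was -0.31 to 0.55, and in the interaction the ranges were -0.20 to 0.35 for Cldn6, -0.22 to 0.33 for Cldn7 and -0.49 to 0.30 for Cldn8. Read depth is unknown, so the precision of low values such as those of Cldn6 cannot be given.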

Other observations

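Of 15 genes of adherens junctions and epithelial identity, 10 rose and 1 fell in PKD_DMSO compared with WT_DMSO (limma), with a median log2 fold change of 0.89 against 0.12 for all genes, of which 14.8% rose and 7.52% fell. Krt8, an intermediate filament keratin of simple epithelia, rose from 95.5 to 366 FPKM (1.92 ± 0.17, adjusted p = 0.00201, limma). Cdh16, the kidney-specific cadherin, was the gene that fell (-0.73). Named after their values were seen, the catenins Ctnnd1, Ctnnb1 and Ctnna1, which tie cadherins to actin, rose by 0.89, 0.75 and 0.68. In PKD_FP compared with WT_FP 3 of the 15 rose and 0 fell (limma), where 8.71% and 5.23% of all genes did so.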
